A study of Mus musculus with 2 samples.

Results

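The genes described here are the nuclear-encoded subunits of the mitochondrial respiratory chain and ATP synthase, measured in 2 total RNA-seq libraries of mouse hippocampus. They were chosen by symbol, as the Nduf, Sdh, Uqcr, Cox4 to Cox8 and Atp5 genes with at least 1 protein_coding transcript, which gave 85 gene rows of 55450. By complex, 37 belong to complex I, 4 to complex II, 8 to complex III, 18 to complex IV and 18 to complex V. Atp5o has 2 rows, and the shorter one, which overlaps Atp5o and Donson, had 0 counts in both libraries. The tissue came from male B6CASTF1/J mice, hybrids of C57BL/6J and CAST/EiJ, at 18 to 20 months of age, with no treatment in the labels, and each library was made from 300 ng of RNA. The libraries are replicate 1 and replicate 2 of a single group. The labels number them as biological replicates with separate biosamples, but give both 1 donor record and do not name the animals. With 2 values the smallest two-sided p of an exact sign-flip test is 0.5, so no p-values are given. The mm10 assembly represents C57BL/6J, and alleles were not analysed.

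Complex I takes electrons from NADH and complex II takes them from succinate. Complex III passes them through cytochrome c to complex IV, which reduces oxygen, and complex V uses the resulting proton gradient to make ATP. A few core subunits of complexes I, III, IV and V are encoded in mitochondrial DNA, while the genes described here are transcribed in the nucleus. Several complex IV subunits have a ubiquitous form and a second form known from heart and skeletal muscle, lung or testis. Neurons depend on oxidative phosphorylation to drive ion pumping and synaptic transmission.

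Depth was 34543760 expected counts for replicate 1 and 32352446 for replicate 2, of which the subunit genes took 0.533% and 0.558%. The tissue label was checked against markers. Excitatory neuron markers summed to 2676 and 2729 TPM, the deposited share of transcripts corrected for length, and the 4 testis markers had 0 counts. Choroid plexus markers set the libraries apart: all 8 were higher in replicate 2, and their sums were 36.6 TPM for replicate 1 and 699 TPM for replicate 2. The heart and skeletal muscle list summed to 8.89 and 8.92 TPM. In tissue, fewer cells of a type and less RNA per cell cannot be told apart.

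Some of these genes have near-identical processed copies elsewhere in the genome, and the following coding stretches are shown because a read from an identical stretch has no base that tells gene and copy apart. Cox7c encodes a small subunit of complex IV. Its first 60 coding bases lie at chr13:86046616-86046675 on the minus strand of mm10, and those of its copies Gm12338 and Gm10012 at chr11:75599895-75599954 (minus) and chr17:25901862-25901921 (plus). Capitals mark the position at which the 3 differ.
Cox7c: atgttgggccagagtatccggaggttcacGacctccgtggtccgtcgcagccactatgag
Gm12338: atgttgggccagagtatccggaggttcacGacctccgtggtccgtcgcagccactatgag
Gm10012: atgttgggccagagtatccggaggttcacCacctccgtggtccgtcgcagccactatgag
Over all 189 coding bases Gm12338 had no difference from Cox7c and Gm10012 had 2, G30C and G107A, with the gene's base first, the position counted from the start codon and the copy's base last. Ndufs5, an accessory subunit of complex I, differs from its copy BC002163 at 2 of 318 coding bases, T81C and A105G. Both fall in coding bases 51 to 110, at chr4:123715970-123716029 (minus) for Ndufs5 and chr16:42955681-42955740 (plus) for the copy.
Ndufs5: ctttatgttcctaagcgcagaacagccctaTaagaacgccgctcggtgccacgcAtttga
BC002163: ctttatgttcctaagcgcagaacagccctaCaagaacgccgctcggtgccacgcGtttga
Atp5g2, which encodes the ring subunit c of complex V, and its copy Gm10175 were identical over all 438 coding bases, as were Ndufb4 and its copy Ndufb4c over 387.

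Most of the subunit genes were at high levels. The median was 96.5 TPM in replicate 1 and 100.1 TPM in replicate 2 (98.3 ± 2.57, SD, n = 2). The lower and upper quartiles of the mean levels were 64.5 and 146 TPM, and detected members spanned 421-fold. Of the 85, 79 (92.9%) had at least 1 TPM in both libraries, against 57.7% of 21938 nuclear protein-coding genes. Of those 79, 61 (77.2%) were among the 1266 highest of the 12653 detected protein-coding genes, a rank that began at 70.6 TPM. Another 12 were among the next 1266, and the other 6 were Ndufb4, Atp5s, Atp5g2, Cox6b2, Cox7a1 and Cox6a2. The genes below the detection level were Cox4i2, Cox7b2, Cox8b, Cox8c, Ndufa4l2 and the shorter Atp5o row.

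The median of the subunit genes was 6.75 ± 0.08 times the median of detected protein-coding genes, which was 14.4 TPM in replicate 1 and 14.7 TPM in replicate 2. The transcripts assigned to subunit genes were short. Their deposited length per gene, over assigned transcripts of all types, had a median of 671 bases in replicate 1. For detected protein-coding genes it was 2530 bases. Without the length correction, in counts scaled to the library total (CPM), the ratio was 1.81. Among detected genes under 1000 bases, the 61 subunit genes had a median of 101 TPM and all 1018 such genes a median of 19.1 TPM. Together the subunit genes held 2.44% of nuclear protein-coding TPM in replicate 1 and 2.51% in replicate 2.

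**Figure D1:**
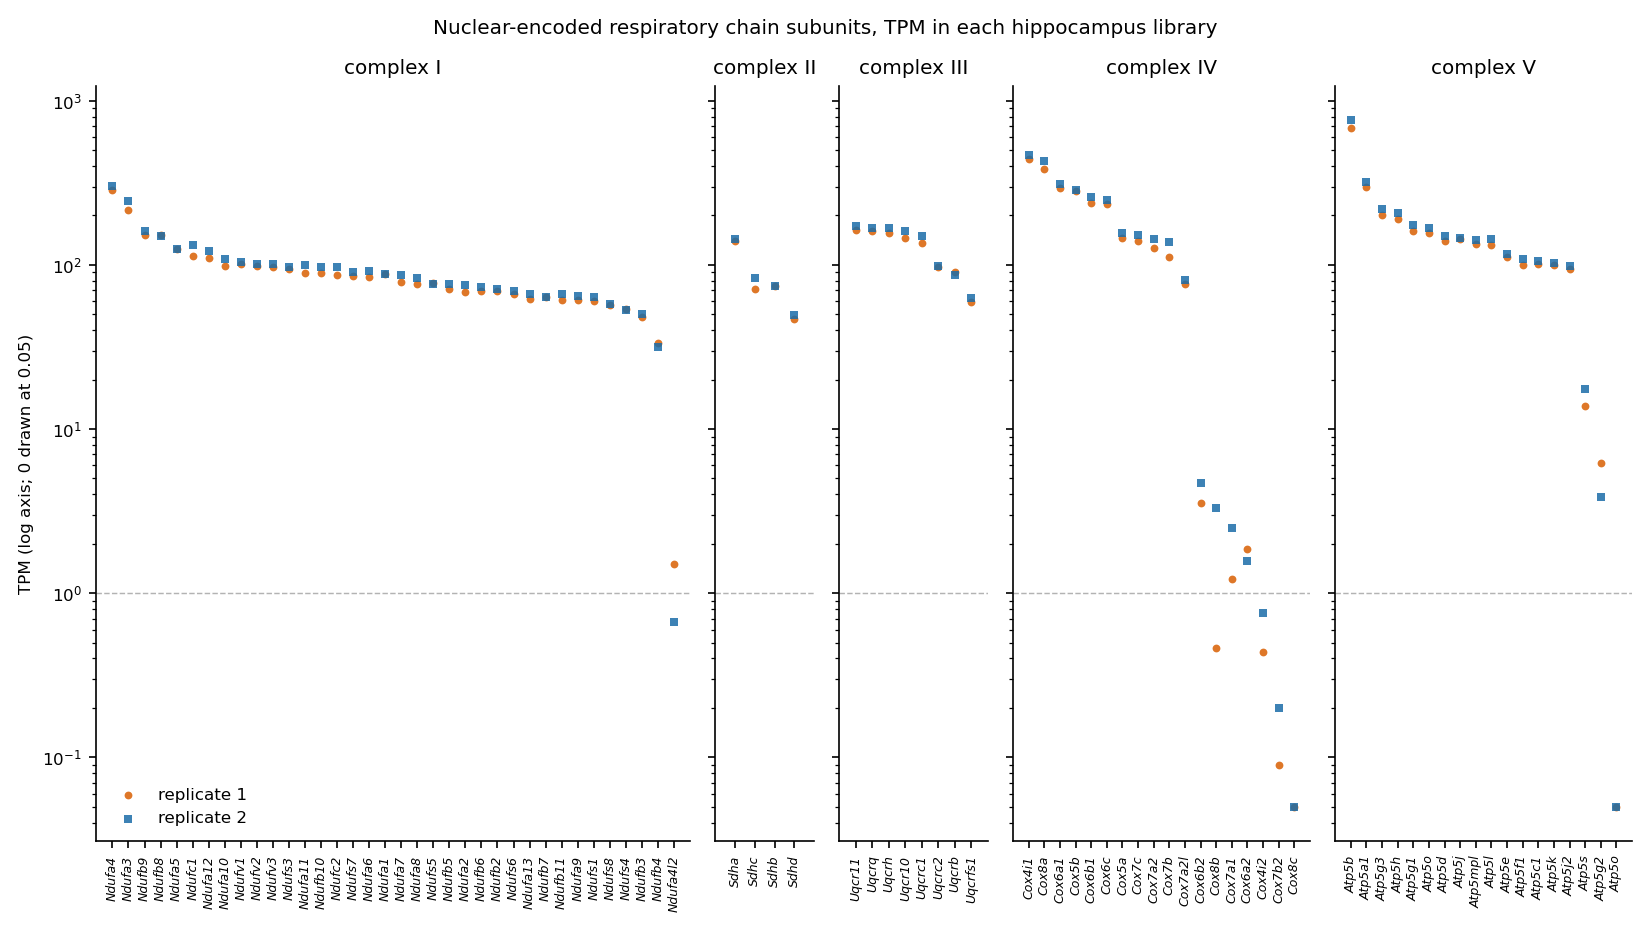
TPM on a log axis of 84 of the 85 subunit genes in replicate 1 (circles) and replicate 2 (squares), ordered within each complex by mean level; the dashed line marks 1 TPM. Most genes sit near 100 TPM in both libraries, Atp5b is at the top with 681 and 760.2 TPM, and the tissue forms of complex IV lie below 5 TPM.

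In complex I, the median level was 84.8 TPM in replicate 1 and 88.1 TPM in replicate 2. Ndufa4 (chr6:11900292-11907497, minus strand) was highest, with 287 and 300.4 TPM (294 ± 9.24). It was first described as a complex I subunit and is now assigned to complex IV. Ndufa3, an accessory subunit, followed with 216 and 245 TPM, but its level was lower in a second quantification of the same libraries, described under transcripts.

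The 7 core subunits, which carry the NADH site and the iron-sulfur clusters, had a median of 96.1 ± 2.11 TPM. The lowest of them was Ndufs8, with 56.7 and 58.0 TPM, and Ndufs1, the large iron-sulfur subunit, came next with 60.6 and 64.1 TPM. The 28 accessory subunits other than Ndufa4 and Ndufa4l2 had a median of 81.5 ± 4.54 TPM. The lowest of these was Ndufb4, with 33.5 and 31.5 TPM, which shares reads with its copy. Ndufb3 came next with 47.9 and 50.2 TPM, then Ndufs4, whose loss causes a Leigh-like disease in mice, with 54.0 and 53.4 TPM. At the other end, Ndufb9 and Ndufb8 had means of 157 and 151 TPM after Ndufa3, and the remaining accessory genes lay between Ndufa9 at 62.5 TPM and Ndufa5 at 125 TPM.

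Complex II had the lowest median of the 5 complexes, 73.0 and 78.9 TPM. Sdha (chr13:74322254-74350280, minus), the flavoprotein that oxidises succinate, had 139.6 and 144 TPM (142 ± 3.30). Sdhb, the iron-sulfur subunit, had 74.8 TPM in both libraries. The membrane anchors Sdhc and Sdhd had 71.2 and 82.9 TPM and 46.6 and 49.9 TPM, so Sdha was above and Sdhd below the other subunits in each library. All 4 were detected.

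Complex III had a median of 142 and 156 TPM. Uqcr11 (chr10:80402997-80406830, minus) was highest with 163 and 173 TPM (168 ± 6.99), followed by Uqcrq, Uqcrh and Uqcr10 at means of 164, 162 and 154 TPM. The ranges of Uqcr11, Uqcrq and Uqcrh overlapped, and Uqcr10, with 147 and 161 TPM, overlapped Uqcrq and Uqcrh but not Uqcr11. The core proteins Uqcrc1 and Uqcrc2 had 137 and 151 TPM and 96.5 and 98.0 TPM. Uqcrb, another small subunit, was below these with 90.7 and 87.0 TPM. The Rieske iron-sulfur protein Uqcrfs1, one of the catalytic subunits, was lowest with 59.8 and 63.1 TPM.

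Complex IV split into 2 sets. The 11 ubiquitous subunits had a median of 235 and 247 TPM, and the other 7 were tissue forms with means of 4.10 TPM or less. Cox4i1 (chr8:120668222-120674207, plus), which regulates the enzyme by binding ATP, was highest with 440.4 and 467 TPM (454 ± 18.9). Cox8a followed with 384 and 429.6 TPM, Cox6a1 with 292 and 309 TPM and Cox5b with 283 and 287 TPM. Cox6b1, Cox6c and Cox5a had means of 249.6, 241 and 152 TPM. The lowest ubiquitous member was Cox7a2l, with 76.7 and 80.6 TPM, a factor that joins complexes III and IV and of which C57BL/6 mice carry a shortened form. Over all 18 genes the median was 119 and 140.3 TPM.

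In complex V the median was 133 and 143 TPM, with a wide spread inside the F1 head. Atp5b (chr10:128083273-128090391, plus), the catalytic β subunit, was the highest of all subunit genes, with 681 and 760.2 TPM (720.4 ± 56.4), and ranked at position 27 among detected protein-coding genes. Atp5a1, the α subunit, had a mean of 311 ± 14.6 TPM. The α and β subunits occur in several copies per enzyme, and whether levels follow copy number was not tested. The single-copy γ, δ and ε subunits were lower: Atp5c1 had 101 and 106 TPM, Atp5d 139.5 and 150.04 TPM, and Atp5e 112 and 117 TPM.

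The peripheral stalk genes Atp5h, Atp5o, Atp5j and Atp5f1 had means between 104 and 198 TPM. The small membrane subunits Atp5mpl, Atp5l, Atp5k and Atp5j2 lay between 96.8 and 138 TPM. Atp5s, a coupling factor that is not a structural subunit of the enzyme, had 13.8 and 17.6 TPM. Atp5g2 (chr15:102662864-102672352, minus) had 6.17 and 3.87 TPM, the lowest level of a complex V gene with counts.

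Between complexes, the order in each library was III, V, IV, I and II. The range of V overlapped those of III and of IV, while III and IV did not overlap, and I and II lay below all 3. The place of IV depended on its tissue forms: over detected members only, the mean medians were 149.0 TPM for IV, 148.7 for III and 139.05 for V. The levels so far come from the deposited gene table. A second deposited table gives transcript levels of the same libraries in the column layout of another tool; summed per gene and called the second quantification here, it has its own TPM scale. There complex IV came first with 280.1 TPM, then V with 255, III with 239, I with 152 and II with 110.0. The order of the upper 3 complexes thus depended on the members counted and on the quantification, while I and II were lowest in each of these settings.

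Each ubiquitous form was compared with its tissue form or paralog in 11 pairs, and the first-named form was higher in both libraries in all 11. Ratios below are of TPM, the first form over the second, with 95% counting intervals per library.

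**Figure D2:**
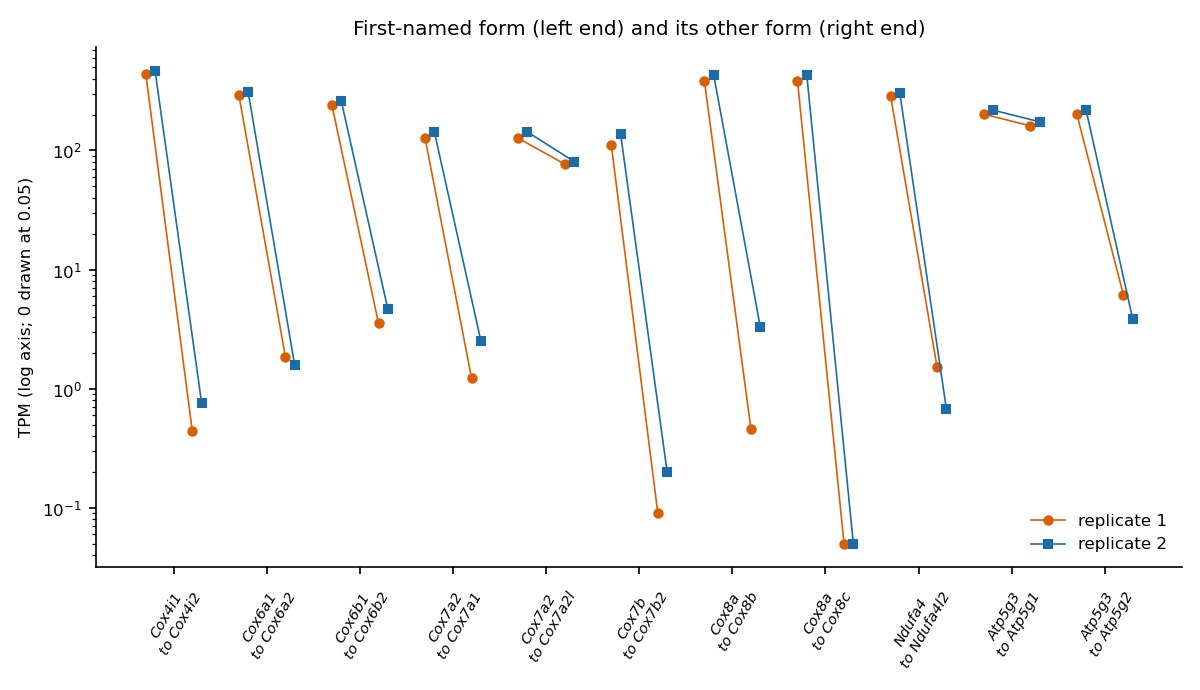
TPM on a log axis for 11 pairs, with the first-named form at the left end and the other form at the right end of each line, for replicate 1 (circles) and replicate 2 (squares). All lines slope down; the tissue forms end below 5 TPM, while Cox7a2l and Atp5g1 stay close to their partners.

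Cox4i1 had 440.4 and 467 TPM, against 0.44 and 0.76 TPM, from 7 and 11 counts, for Cox4i2, the oxygen-responsive form known from lung. Cox4i1 was 1001-fold higher in replicate 1 (481 to 2467) and 615-fold higher in replicate 2 (344 to 1233). Cox6a1 had 292 and 309 TPM, against 1.85 and 1.57 TPM for Cox6a2, the striated muscle form. Cox6a1 was 158-fold (108 to 240.0) and 197-fold (129 to 319) higher. In the second quantification the mean ratio of Cox6a1 over Cox6a2 was 355, against 177 ± 27.5. The list of parvalbumin interneuron markers summed to 223 TPM for replicate 1 and 231 TPM for replicate 2, with 4 of 5 higher in replicate 2. The part of these cells or of muscle cells in the Cox6a2 counts was not tested.

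Cox7a2 had 127 and 143 TPM, against 1.22 and 2.51 TPM, from 9 and 17 counts, for Cox7a1, likewise a heart and skeletal muscle form. Cox7a2 was 104-fold (54.6 to 227) and 56.9-fold (35.5 to 98.0) higher. The mean ratio was 80.4 ± 33.2, 184 in the second quantification and 151 in counts without length correction.

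Cox8b, a heart and muscle form in mice, differed most between libraries of the 8 tissue forms, with 0.46 TPM in replicate 1 and 3.32 TPM in replicate 2, from 3 and 20 counts. Per total counts its level in replicate 1 was 0.140 of that in replicate 2 (95% interval 0.0267 to 0.474). Cox8a, with 384 and 429.6 TPM, was 835-fold higher in replicate 1 (287 to 4066) and 129-fold higher in replicate 2 (83.6 to 212). In counts without length correction the mean ratio was 836, against 482 ± 499. The choroid plexus list was higher in the same library, 36.6 TPM for replicate 1 and 699 TPM for replicate 2, with 8 of 8 markers higher there and none at 0. The muscle list was level, at 8.89 and 8.92 TPM. The part of these cell types in the Cox8b counts was not tested.

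The testis forms were at the limit of detection, except Cox6b2. Cox6b1 had 239 and 260.2 TPM, against 3.54 and 4.66 TPM, from 34 and 38 counts, for Cox6b2. Cox6b1 was 67.5-fold (48.2 to 97.6) and 55.8-fold (40.6 to 79.1) higher. Cox7b had 111 and 138 TPM, against 0.09 and 0.20 TPM, from 1 and 2 counts, for Cox7b2. Cox7b was 1238-fold (222 to 48938) and 689-fold (195 to 5813) higher. The mean ratio of Cox7b over Cox7b2 was 963 ± 388, but 540.2 in the second quantification and 465 with protein_coding transcripts only. Cox8c had 0 counts in both libraries. Against a floor of 3 counts per library, Cox8a was at least 1153-fold higher in replicate 1 and at least 1186-fold higher in replicate 2. The defining testis markers Prm1, Prm2, Tnp1 and Ldhc were at 0 in both.

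Ndufa4l2, a hypoxia-induced relative of Ndufa4 known from brain pericytes, had 1.51 TPM in replicate 1 and 0.67 TPM in replicate 2, from 29 and 13 counts. Its level per total counts was 2.09 times as high in replicate 1 (95% interval 1.05 to 4.38). Mural cell markers summed to 57.5 TPM for replicate 1 and 50.02 TPM for replicate 2, with 8 of 10 higher in replicate 1 and none at 0, and their part was not tested. Ndufa4 was 190.3-fold (132 to 285) and 448-fold (259.8 to 837) higher than Ndufa4l2. In counts without length correction the mean ratio was 156, against 319 ± 182.

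Pairs within the same tissue range differed far less. Cox7a2 had 127 and 143 TPM and Cox7a2l 76.7 and 80.6 TPM. Cox7a2 was 1.65-fold (1.55 to 1.76) and 1.77-fold (1.66 to 1.89) above Cox7a2l per length. In counts without length correction the mean ratio was 0.969, so the direction rests on the length correction. Atp5g3 and Atp5g1, which with Atp5g2 encode the same mature c subunit behind different import sequences, had 202 and 218 TPM and 161 and 174 TPM. Their ratio was 1.26 in replicate 1 (1.19 to 1.33) and 1.25 in replicate 2 (1.19 to 1.32). In the second quantification it was 1.49 and 1.57, outside these intervals, which hold counting error only. In the gene table the copy Gm10039 took 6.36 ± 0.36% of the reads of Atp5g1 plus copy, and 0 in the second quantification.

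Atp5g2 was 32.7-fold (26.6 to 40.4) and 56.3-fold (42.9 to 74.5) below Atp5g3 in the gene table, and 2.04-fold below it on average in the second quantification. The gene table gave Atp5g2 94.8 and 54.6 expected counts, with posterior SDs of 24.7 and 20.6. Its copy Gm10175, a transcribed processed pseudogene on chromosome 7, received 1328 and 1297. In the second quantification Atp5g2 received 1250.0 and 1125 counts and Gm10175 received 0. A second copy, Gm10231, also identical over the coding sequence, had 0 counts in both. With the reads of copies placed on the length of Atp5g2 itself, its level was 94.2 ± 2.21 TPM.

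Near-identical copies, at 95% identity over at least 80% of a coding sequence of the member, were found for 21 members. For the Cox7c copies Gm11930 and Gm19309 that sequence had 72 bases, not the 189 shown above, and both had 0 counts. There were 39 copies, 37 of them annotated as pseudogenes, and 26 had under 10 counts in each library. In the gene table, copies took at least 5% of the reads shared with the member for 10 members. In the second quantification they did so for 2, Ndufa12 and Atp5o.

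**Figure D3:**
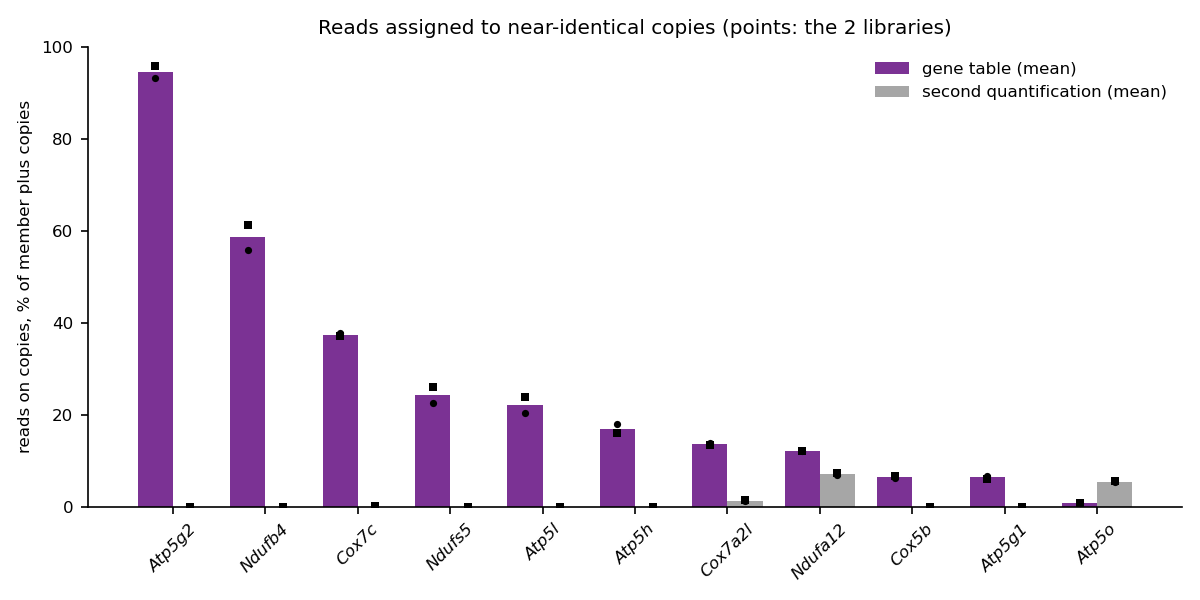
Reads assigned to near-identical copies, in percent of the reads of member plus copies, in the gene table (purple) and the second quantification (grey); bars are means and points the 2 libraries. Copies took 94.6% for Atp5g2, 58.6% for Ndufb4 and 37.4% for Cox7c in the gene table, and close to 0 for these genes in the second quantification.

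For Ndufb4, Ndufb4c received 599 and 623 counts, more than the 473 and 393 of Ndufb4 itself, and 0 in the second quantification. For Cox7c, the identical Gm12338 received 733 and 737 counts and Gm10012, with 2 differences, 191 and 161, beside 1525 and 1520.3 for Cox7c. With the reads of copies placed on the length of Cox7c itself, its level was 233 ± 11.7 TPM, against 146 ± 8.32 TPM alone. Adding the copies' own TPM gave 501 ± 27.6 TPM, since Gm12338 is short and had 314 and 344 TPM from fewer reads than Cox7c. For Ndufs5, BC002163 received 244 and 266 counts beside 840.5 and 761. Copies took 22.1 ± 2.49% of reads for Atp5l, 17.0 ± 1.42% for Atp5h and 13.7 ± 0.32% for Cox7a2l. For Atp5o the order of the quantifications was the other way, with 0.808% of reads on Gm5436 in the gene table and 5.40% in the second quantification. The levels of these members, Atp5g2, Ndufb4 and Cox7c above all, are uncertain to that extent.

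The 2 quantifications were set on the same scale, TPM rescaled over nuclear protein-coding genes, and compared for the 79 detected members. The second quantification was at least 1.5-fold higher for 8 (10.1%), against 2.54% of detected protein-coding genes, and at least 1.5-fold lower for 5 (6.33%), against 2.44%. Among genes under 1000 bases, the shares for members were 13.1% and 8.20% and those for all 1018 detected genes 7.86% and 10.3%. The median log2 difference was 0.06 for members and -0.08 for all detected protein-coding genes.

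The 3 members most raised were Atp5g2, Ndufb4 and Cox7c, with log2 differences of 4.23, 1.58 and 1.05 on the log2(value + 1) scale, and all 3 have copies. The 3 most lowered were Ndufa3, Ndufa1 and Sdhc, with -1.34, -0.76 and -0.75. The others past 1.5-fold were Atp5e, Atp5j2, Cox7a2, Cox7b and Cox6c upward and Cox6a2 and Ndufa2 downward. Ndufa1, a small membrane-arm subunit, had 202 and 174 counts in the second quantification and 707 and 650 in the gene table. Its effective length, by which counts are divided to give TPM, was 118 and 116 bases in the second quantification and 320.0 bases in the gene table; a shorter length by itself raises TPM. Counts of members under 600 bases were 0.802 times as high in the second quantification (median of 30 with at least 100 counts), and those of all 165 such genes 0.844 times. For 19 members of 1000 bases or more the ratio was 1.02, and for all 11015 such genes 1.07.

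**Figure D4:**
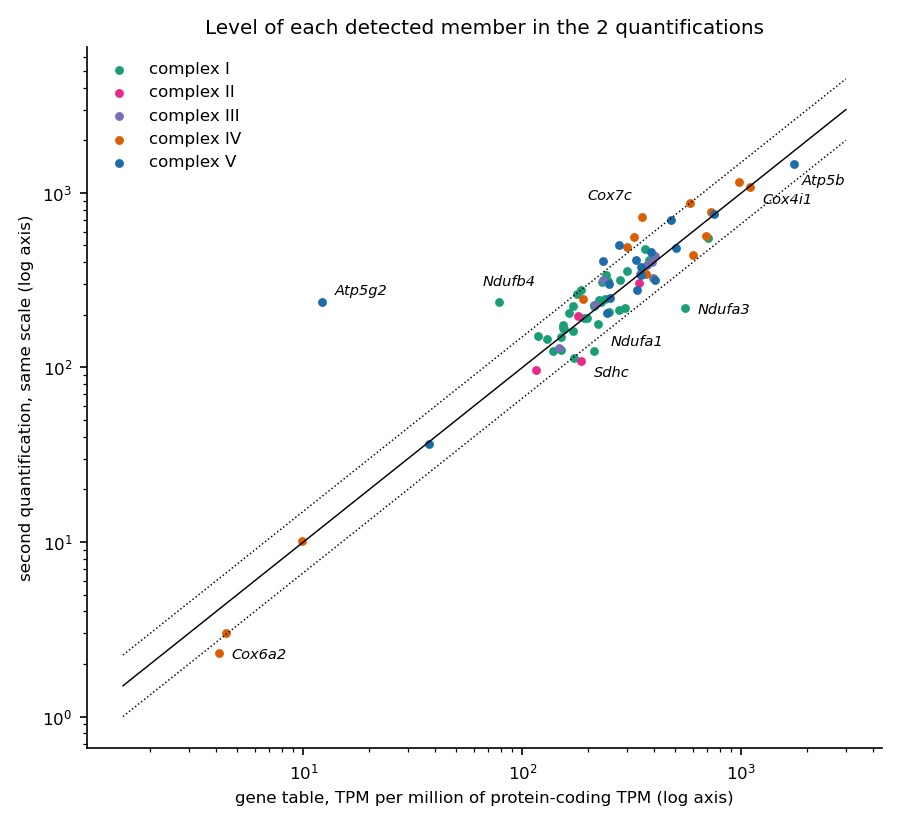
Mean level of the 79 detected members in the gene table (x axis) and in the second quantification (y axis), both in TPM rescaled over nuclear protein-coding genes, on log axes, coloured by complex; the solid line marks equality and the dotted lines a 1.5-fold difference. Atp5g2, Ndufb4 and Cox7c lie above the lines, and Ndufa3, Ndufa1, Sdhc and Cox6a2 below.

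Transcripts of the protein_coding type held a median of 96.9% of a detected member's TPM in the gene table's companion. They held under 50% for 11 of 79 members (13.9%), against 9.3% of detected protein-coding genes. In the second quantification this was 18 of 79 (22.8%), against 11.3%. Only 8 members were under 50% in both, among them Ndufa5, Ndufs4, Ndufb4, Ndufc1 and Uqcrh.

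Of 70 detected members with several transcripts, 43 had the same leading transcript in both quantifications. For Cox5b, the zinc-binding subunit, the 362-base processed transcript Cox5b-205 held 67.2 ± 2.01% of TPM in the gene table's companion, and the coding Cox5b-201 held 76.7 ± 0.26% in the second quantification. For Atp5j, the retained-intron transcript Atp5j-208 held 80.4 ± 1.55%, against 0 in the second quantification, where coding Atp5j-203 held 81.9 ± 0.22%. Cox6a1 went the other way, with 99.1 ± 0.75% on coding Cox6a1-201 and then 94.6 ± 0.47% on the retained-intron Cox6a1-202. For Ndufa3, Ndufa3-204, of the nonsense_mediated_decay type and 343 bases long, held 92.1 ± 0.43%, and Ndufa3-205, a 782-base retained-intron transcript, held 57.3 ± 11.5% in the second quantification. Replicates differed far less than the quantifications in the first 3 of these genes. These tables do not settle which transcript is present.

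Exons of 26 members overlap those of a gene on the opposite strand, for example Cox4i1 and Emc8 over 154 bases and Atp5j and Gabpa over 397 bases. Whether counting used strand is not given in the sources used here, so counts in the shared bases are uncertain.

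Over the 79 detected members the coefficient of variation of TPM had a median of 4.50%, and over all detected protein-coding genes 4.81%. It was highest for Cox7a1 at 48.9%, Atp5g2 at 32.4% and Cox6b2 at 19.3%, each with under 100 counts in both libraries. TPM was higher in replicate 2 for 72 of 79 members and for 64.8% of detected protein-coding genes. Count ratios of replicate 1 over replicate 2 were taken under TMM scaling for genes averaging 1 CPM or more, which kept 77 members. Their median on the log2 scale was -0.04, and that of all genes -0.0024. Scaling by spike-in totals moved the median of all genes to 0.18 and that of members to 0.14. At least 1.5-fold higher in replicate 1 was 1 member (1.30%), Atp5g2, against 1.38% of genes, and 0 members were 1.5-fold lower, against 0.874% of genes. Atp5g2 was 0.71 higher on the log2 scale, and 0.06 higher in the second quantification, where its copies had 0 counts.

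The partners encoded outside this set were read on the same TPM scale. In the gene table all 13 mitochondrially encoded subunits were detected. Their median there was 1739 TPM for replicate 1, the value of mt-Atp8, and 1888 TPM for replicate 2. The highest was mt-Co1, the catalytic subunit of complex IV, with 6363 and 6527 TPM, and the lowest by mean was mt-Nd6 with 166 and 165 TPM. Levels of mt-Co2 were 244 and 147 TPM, but 1827 and 1547 TPM on the scale of the second quantification. There mt-Atp6 was also higher, at 9334 and 10075 TPM against 3164 and 2803 TPM. Going the other way, mt-Atp8 fell from 1739 and 1673 TPM to 0 in both libraries. Likewise mt-Nd4l fell from 2113 and 2035 TPM to 8.66 and 9.49 TPM, so levels of single mitochondrial genes depended on the quantification. Nuclear copies of mitochondrial DNA can share such reads. Of 10 symbols listed for subunits and carriers with other names, 6 were found and 5 detected. The list holds alternative names of the same gene, such as Atpif1 and Atp5if1, so a symbol not found is not a missing gene. Cyc1, the cytochrome of complex III, had 85.1 and 85.4 TPM, and Cycs, the somatic cytochrome c, had 16.1 and 16.8 TPM. In the second quantification Cycs had 175 and 200.2 TPM, so its level depended on the quantification. Cyct, the testis cytochrome c, had 0 counts.

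All 46 assembly factors were detected, with a median of 13.97 ± 0.48 TPM, and all 46 lay below the subunit median. That is also true of most detected protein-coding genes, whose median was 14.4 and 14.7 TPM. Only the highest 1266 of those 12653 genes reached 70.6 TPM. Uqcc2, a complex III assembly factor, was highest with 84.7 and 90.8 TPM, followed by the copper chaperone Cox17 with 53.8 and 56.5 TPM. The 12 regulators of subunit or mitochondrial transcription had a median of 12.1 ± 0.62 TPM, and all 12 were detected. Esrra had 23.5 and 25.4 TPM, Ppargc1a 18.5 and 19.5 TPM, Nrf1 9.03 and 8.58 TPM and Gabpa 10.6 and 11.3 TPM.

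Subunit promoters are known for sites of NRF1, of ETS factors such as GABP, and of YY1. RefSeq promoter windows on GRCm38.p6, 250 bases before to 50 after each start, were matched for 68 of 84 member symbols and 27025 genes in all. The NRF1 core CGCATGCG, which reads the same on both strands, was present for 9 members (13.2%, 95% interval 6.23 to 23.6), against 2.07% of all genes and 4.32% of detected protein-coding genes. The YY1 motif AAGATGGC, on either strand, was present for 10 (14.7%, 7.28 to 25.4), against 3.19% and 5.27%. The ETS motif CCGGAAG was present for 16 (23.5%, 14.1 to 35.4), against 9.93% and 19.5%. The share in detected genes lay inside the members' interval for ETS and below it for NRF1 and YY1. CCAAT was present for 30 (44.1%), against 41.1% and 42.9%, and TATAAA for 7 (10.3%), against 15.7% and 8.33%. The ETS and YY1 letters can share the bases AAG. A match is a description of letters, not of binding.

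**Figure D5:**
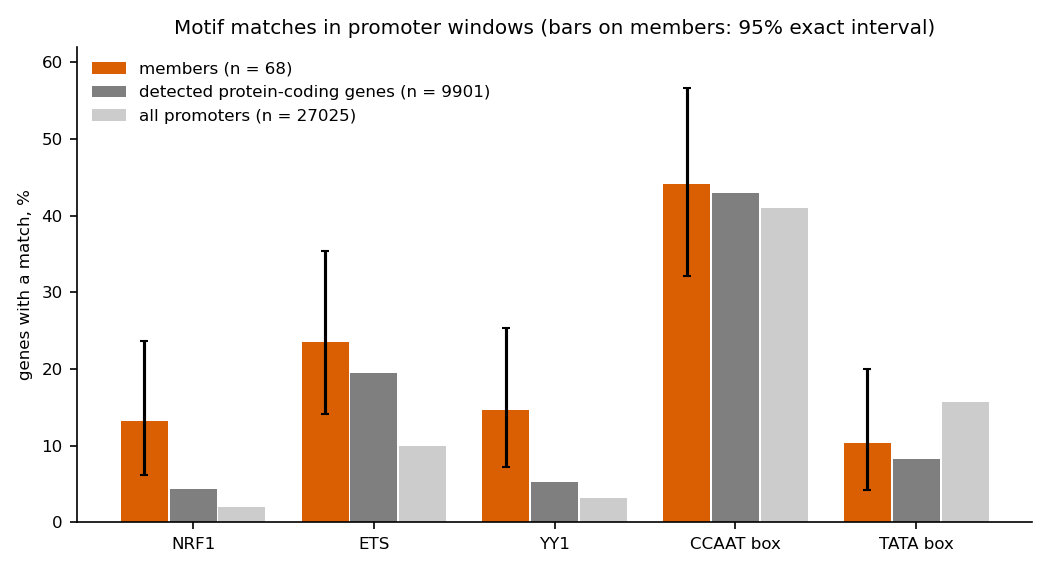
Share of genes with a match, in percent, for 5 motifs in promoter windows of members (orange, n = 68, with 95% exact intervals), detected protein-coding genes (dark grey, n = 9901) and all genes (light grey, n = 27025). The NRF1 and YY1 bars of members stand at 13.2% and 14.7%, and their intervals lie above both grey bars of the same motif; for CCAAT and TATA the grey bars lie inside the members' intervals.

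The matches below show where the letters fall, with the motif in capitals, on the strand of the gene, in GRCm38.p6 coordinates. Each start is that of the RefSeq window. For Atp5g2 and Ndufs7 it lies inside the gene as annotated in GENCODE, not at the gene's outer end. Atp5g2, at chr15:102671065-102671104 (minus), and Ndufa11, at chr17:56717687-56717726 (plus), have the NRF1 letters 41 and 59 bases before the start.
Atp5g2: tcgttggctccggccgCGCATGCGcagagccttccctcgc
Ndufa11: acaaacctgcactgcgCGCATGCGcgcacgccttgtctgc
Uqcr11, the highest member of complex III, has ETS letters at chr10:80406865-80406903 (minus), 66 bases before the start, and NRF1 letters 5 bases before it.
Uqcr11: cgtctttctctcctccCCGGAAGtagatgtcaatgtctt
All 10 members with YY1 letters had them within 100 bases before the start or in the 50 after it. Over all genes, 547 of the 862 with a match had one there. The letters AAGATGGC hold ATG, and whether a match covers a start codon was not tested. Those of Ndufs7, at chr10:80249463-80249490 (plus), and Ndufc1, at chr3:51408916-51408943 (minus), lie 25 and 23 bases after the start.
Ndufs7: ggccgaggccAAGATGGCggcgctggcg
Ndufc1: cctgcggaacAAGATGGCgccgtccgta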

How the data were processed

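Total RNA-seq of 2 hippocampus libraries in 1 group was used, with replicate numbers from the labels. Per the deposited notes, reads were set against mm10 and GENCODE M21; the sources used here name no aligner or counter. The authors' gene table and first transcript table give expected counts and TPM in the column layout of RSEM, per the file headers. Their second transcript table gives estimated counts and TPM in the layout of kallisto, here summed per gene and called the second quantification. A score for the uncertainty of each expected count, its posterior SD, was also deposited by the authors.

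Members are gene symbols that fit the naming pattern of the nuclear subunits and have a protein_coding transcript. The members, gene lists, pairs and motifs were chosen with earlier results of these data known. Genes named in full are the highest and lowest member of each complex, all isoform pairs, members at least 1.5-fold apart between libraries and the 3 most different in each direction between quantifications. A further 86 gene rows without a matching symbol were not used here, and 1 member's own values are not reported here.

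Levels are deposited TPM as mean ± SD (n = 2), and a gene counts as detected from 1 TPM upward in each library. Quantifications were compared after rescaling over nuclear protein-coding genes, as log2(value + 1). Library ratios used rounded expected counts, TMM in edgeR 4.0.16 (R 4.3.3), a prior count of 0.5 and a mean CPM of at least 1, with DESeq2 1.42.0 size factors as an alternative; the steps were tested on simulated data. Copies were found with blastn 2.17.0 from coding sequences, at 95% identity over at least 80% of the bases; placing their reads on the member's own length was chosen after seeing the data. Intervals are 95% Clopper-Pearson and the floor is 3 counts, which reflects counting error only. Tables were handled in Python 3.11.15.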

Additional observations from a re-analysis of the deposited data

How the results depend on the processing

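The median of all members, 98.3 TPM, was 176 TPM in the second quantification and 236 TPM after rescaling to nuclear protein-coding genes. For complexes I to V those values were 152 and 208, 110.0 and 182, 239 and 357, 280.1 and 311, and 255 and 332 TPM; both alternatives use another denominator by construction. With members of at least 1 TPM only, complex IV had 149 TPM. With the TPM of copies added, an alternative chosen after seeing the data, complex I had 89.2 TPM. The ratio to detected protein-coding genes was 8.09 in the second quantification, 1.81 without length correction and 10.6 against genes above 0 TPM. Members 1.5-fold apart between libraries numbered 1, and 0 in the second quantification, 0 at a mean CPM of at least 5 and 6 with no filter. Their median log2 ratio was 0.14 with spike-in totals. The CCAAT share was 29.4% in the shorter window. Of the isoform ratios, Cox7a2 over Cox7a2l reversed, to 0.969 in uncorrected counts. The cause of these shifts was not tested where the construction does not give it. Leaving out either replicate was run for the medians, the ratio to detected genes, the detected count and the isoform ratios. All but the detected count stayed within 1 SD, which 2 replicates make certain for a mean. The detected count was 80 with replicate 1 left out and 80 with replicate 2 left out, against 79 in both libraries. The library ratios and motif shares have no such value. No paired analysis was possible because there is only 1 group. Depth limits the tissue forms with 0 to 38 counts.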

Other observations

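Of the symbols that fit the naming pattern, 12 had no protein_coding transcript and were not counted as members. Ndufb1-ps, annotated as a bidirectional promoter lncRNA, had 39.6 and 36.7 TPM from 441 and 389 counts, between the levels of Ndufb4 and Ndufb3. In the second quantification it had 499 and 442 counts, so its reads were assigned to it in both. Of the other 11, Ndufb4c had 82.0 and 92.8 TPM in the gene table, and Cox6c2 had 2.05 TPM in replicate 1 and 0 in replicate 2. The remaining 9 had at most 1.32 counts in a library.

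The member genes lie on 19 chromosomes, with 8 on chromosome 7 and 3 on the X chromosome.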
